A study of Mus musculus with 2 samples.

Results

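The Z-disc is the plate at each end of the sarcomere where actin filaments of neighbouring sarcomeres are crosslinked and where titin is anchored. Its proteins carry the load of each beat and also tether signalling molecules such as calcineurin, so the Z-disc is regarded as a site where heart muscle senses stretch. Mutations in several of these genes cause hypertrophic or dilated cardiomyopathy. The genes described here are 10 Z-disc genes chosen by function, without regard to their counts, out of 25004 genes. They are Actn2, Tcap, Myot, Nexn, Ldb3, Csrp3, Myoz2, Nebl, Flnc and Synpo2l.

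Whole hearts of 12-week-old FvB/N mice gave 1 messenger RNA library for non-transgenic controls and 1 for mice labelled cMyBP-C delta C0-C1f transgenic. The transgene encodes cardiac myosin binding protein-C, a regulator of the thick filament, lacking the C0-C1f region of its amino terminus. Each library pooled 3 hearts, so variation between animals within a group was not measured, and the promoter that drives the transgene is not given in the sources used here. The study set out to compare messenger RNA regulation in these hearts. Since each group is 1 library, no difference has a replicate check, no p-value is given, and every interval covers counting error alone. Total counts were 170543 (non-transgenic) and 190824 (transgenic), so 1 count was worth 5.86 and 5.24 CPM, a unit in which every library has the same total. In bulk hearts, fewer cells of a type and less RNA per cell cannot be told apart.

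Only 4 of the 10 genes were counted well enough for a ratio between the libraries, and the counts of the group rested on a pair of them. Actn2 and Tcap together held 96.4% of the 645 counts of the 10 genes in the control and 96.4% of the 971 in the transgenic library. Myot and Nexn had between 7 and 21 counts, and Csrp3 and Synpo2l had a single count in 1 library each. Ldb3, Myoz2, Nebl and Flnc had no count in either library, which by counting error alone allows up to 3 counts, or 17.6 CPM in the control and 15.7 CPM in the transgenic library. These are core structural genes of heart muscle, and their count of 0 is set beside the structure of the counted transcripts.

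**Figure D1:**
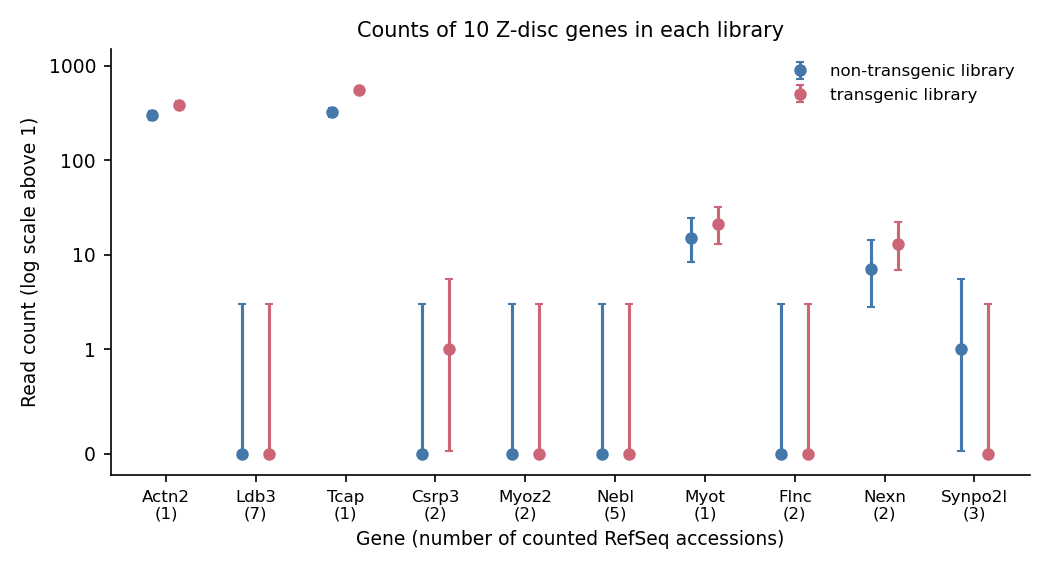
Read counts (vertical axis, log scale above 1) of the 10 Z-disc genes in the non-transgenic (blue) and the transgenic (red) library, with the number of counted RefSeq accessions in brackets; bars are exact 95% Poisson intervals, or the limit of 3 counts where the count was 0. Actn2 and Tcap lie between 299 and 552 counts, and 6 genes lie at 0 or 1.

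The 10 genes fell apart by how many RefSeq transcripts the deposited tables list for them. The deposited counts are per transcript accession, and the 10 genes have 26 accessions. The 3 genes with 1 accession, Actn2, Tcap and Myot, all had a ratio. Of the 7 genes with 2 to 7 accessions, Nexn alone had more than 1 count in a library. Among the 23 accessions of these 7 genes, 3 had any count.

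The accessions of a gene can share most of their exons. The filamin C gene Flnc shows this most plainly. Its 2 accessions correspond to GENCODE transcripts of 9038 and 8939 bases that are identical except for 1 coding exon of 99 bases, present in the longer and skipped in the shorter. This exon lies at chr6:29452799-29452897 on the plus strand (GRCm38, the assembly also called mm10). It is printed 5′ to 3′ from the GENCODE transcript, without capitals because the whole exon is the difference, and it is the only sequence that belongs to 1 Flnc accession and not to the other.
Flnc exon of the longer transcript: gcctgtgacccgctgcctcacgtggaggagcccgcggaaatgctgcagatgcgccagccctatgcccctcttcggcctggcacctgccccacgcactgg
Both Flnc accessions had 0 counts in both libraries, the one with the exon and the one without it.

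The same measure was taken for the other genes whose accessions all have a GENCODE transcript. Private bases are exonic bases of an accession that no other counted accession of the gene covers. The 7 accessions of Ldb3 had between 0 and 122 private bases, none of them coding, and 4 of the 7 had none. The 2 accessions of Csrp3 differed by 36 and 58 bases, all non-coding, and the single count of Csrp3 was on the accession with 36. The 3 accessions of Synpo2l had 57, 178 and 2 private bases, and its single count was on the accession with 178, the most of any accession measured among the 10 genes. Nexn, Myoz2 and Nebl each have accessions without a GENCODE match, so their private bases were not measured. All counts of Nexn were on 1 of its 2 accessions.

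**Figure D2:**
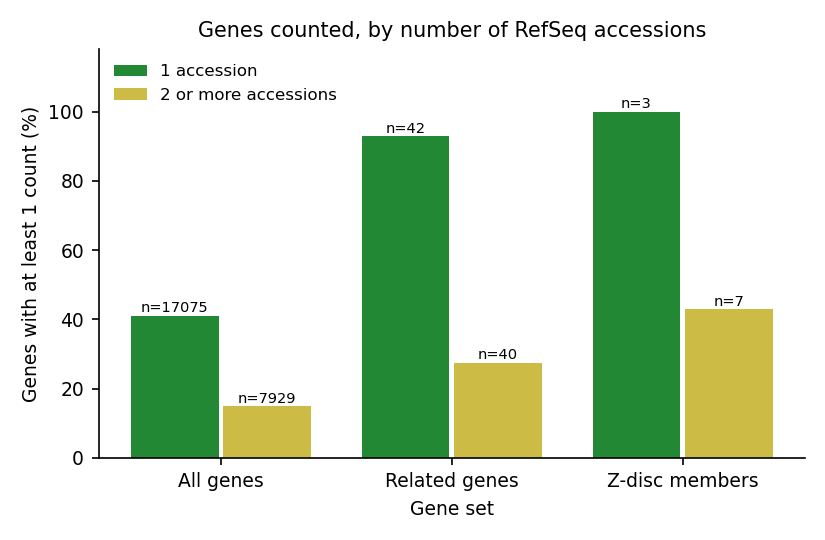
Share of genes with at least 1 count in either library (vertical axis, percent) for genes with 1 RefSeq accession (green) and with 2 or more (yellow), over all genes, 82 related genes of the Z-disc, stretch signalling, costamere, intercalated disc and paralogues, and the 10 Z-disc genes; n is the number of genes. In each set the share is higher for genes with 1 accession, 41.1% against 14.9% over all genes and 92.9% against 27.5% over the related genes.

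A split in the same direction was found in larger sets of genes. Over all 25004 genes, 7019 of 17075 genes with 1 accession had a count (41.1%), against 1180 of 7929 genes with 2 or more (14.9%). Among 82 related genes listed for the Z-disc, stretch signalling, the costamere, the intercalated disc and paralogues of the 10, 39 of 42 with 1 accession had a count and 11 of 40 with 2 or more. Across 5096 genes with 2 or more accessions, the share of accessions with a count was 1.58% of 5642 with no private base and 2.27% of 2775 with at least 1 but fewer than 100. It was 10.8% of 4143 with at least 100 but fewer than 1000 private bases and 25.6% of 1354 with 1000 or more. Counting per transcript may discard reads that fit several transcripts, and the setting used is not given in the sources used here. Its part in the counts of 0 was not tested, and a count of 0 or 1 in Ldb3, Csrp3, Myoz2, Nebl, Flnc or Synpo2l is no measure of how strongly the gene was expressed.

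**Figure D3:**
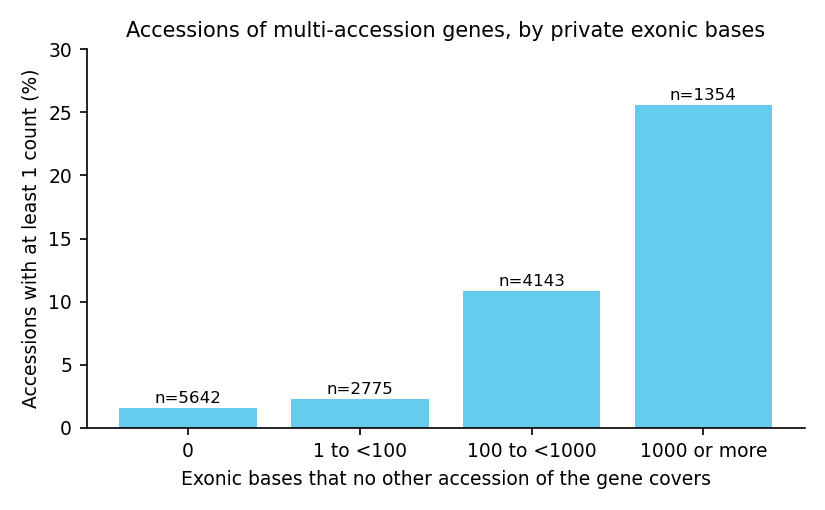
Share of transcript accessions with at least 1 count (vertical axis, percent) by the number of exonic bases that no other accession of the gene covers, for genes with 2 or more accessions; n is the number of accessions. The share goes from 1.58% with no such base to 25.6% with 1000 or more, and the accessions measured among the 10 Z-disc genes have 178 or fewer.

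The strand setting of the counting is not given in the sources used here either, while the library kit keeps strand. If the setting did not match the kit, a count would stand for reads antisense to the gene. No exon of the 10 genes overlaps an opposite-strand exon in GENCODE, so none shares its counts with an annotated opposite-strand partner. An opposite-strand exon lies within 5 kb of 4 of them. These are Pgap3 beside Tcap, Fubp1 beside Nexn and Zdhhc13 beside Csrp3, with 0 and 0, 0 and 0, and 1 and 0 counts in the non-transgenic and transgenic library, and Gm49012 beside Ldb3, which was not among the counted genes. The nearest exons of Fubp1 and Nexn lie 156 bases apart, and the gaps of the other neighbours are 2410 to 3724 bases. With the counting and strand settings not given, the counts of these neighbours do not measure how strongly they were expressed. Whether their reads added to the counts of the 10 genes was not tested. The other 6 of the 10 genes have no opposite-strand exon within 5 kb.

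Ratios are transgenic over non-transgenic after normalisation by the trimmed mean of M-values (TMM), given where at least 1 library held more than 3 counts. A gene was called higher or lower if the ratio was at least 1.5-fold with a 95% Clopper-Pearson counting interval on the same side of 1. By this rule 3.42% of the 4236 genes with a ratio were higher and 5.90% were lower. None of the 4 Z-disc genes with a ratio was called, and with shares this small over all genes a count of 0 in 4 says nothing particular about them.

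Actn2 encodes sarcomeric alpha-actinin, the crosslinker of actin filaments at the Z-disc (NM_033268, chromosome 13, 12269426 to 12340760, minus strand, GRCm38). Its count was 299 in the control and 384 in the transgenic library, or 1753 and 2012 CPM. The count was higher in the transgenic library, which was also the deeper one, and after normalisation the counts were alike within counting error. The ratio was 1.02 (counting interval 0.876 to 1.19), and it turned to 0.999 with upper-quartile scaling. It was higher than the ratio of 49.1% of the 4236 genes.

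Tcap encodes telethonin, which binds the amino-terminal ends of titin at the Z-disc and is a partner of the protein made from Csrp3 (NM_011540, chromosome 11, 98383811 to 98384953, plus strand, GRCm38). Its count was 323 in the control and 552 in the transgenic library, or 1894 and 2893 CPM. The exact Poisson intervals of these raw counts, 289 to 360 and 507 to 600, did not overlap. Those of Actn2, 266 to 335 and 347 to 424, did not overlap either, and raw counts also carry the difference in depth. The ratio of Tcap was 1.36 (1.18 to 1.56), above 1 beyond counting error and short of 1.5-fold. With library totals alone it was 1.53 (1.33 to 1.76) and would be called. The ratio was higher than that of 69.3% of the 4236 genes, of which only 1349 had at least 30 counts. The median log2 ratio of those 1349 was -0.1, and the log2 ratio of Tcap was 0.44. Over the 297 of them with an opposite-strand exon within 5 kb but no overlap, as for Tcap, the median was 0.05. The rank of Tcap among genes of like depth was not measured.

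The difference between Tcap and Actn2 does not depend on the scaling of the libraries. Tcap had 1.08 counts per count of Actn2 in the control and 1.44 in the transgenic library, a change of 1.33-fold (exact counting interval 1.08 to 1.64). Transcript lengths were 948 bases for Tcap and 3013 for Actn2, taken from GENCODE and not from the counted RefSeq exons. Per kilobase, Tcap had 341 counts against 99.2 for Actn2 in the non-transgenic library. It had 582 against 127 in the transgenic library, so the count of Tcap per length was 3.43 and 4.57 times that of Actn2. With the strand setting not given, whether the counts of these genes are sense reads was not tested. Of 6 pairs among the 4 genes, this pair alone had an interval that left out 1, and the intervals were not adjusted for the number of pairs.

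Myot encodes myotilin, which binds alpha-actinin and filamin C and bundles actin. Its count was 15 in the control and 21 in the transgenic library, or 88.0 and 110 CPM. The ratio was 1.11 (0.547 to 2.32), and at this depth neither a change of 1.5-fold upward nor one downward was detectable. Per kilobase it stood at 6.79 and 9.51 counts, below Actn2 and Tcap in both libraries.

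Nexn encodes nexilin, an actin-binding protein of the Z-disc and the junctional membranes (chromosome 3, 152236982 to 152266350, minus strand, GRCm38). It had 7 and 13 counts, or 41.0 and 68.1 CPM, with Poisson intervals of 2.81 to 14.4 and 6.92 to 22.2 that overlapped. The ratio of 1.48 (0.548 to 4.37) was not distinguishable from 1. No level per length is given, since the accession that held the counts has no GENCODE match. As a gene with 2 accessions, Nexn may also have lost reads that fit both, which was not tested.

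**Figure D4:**
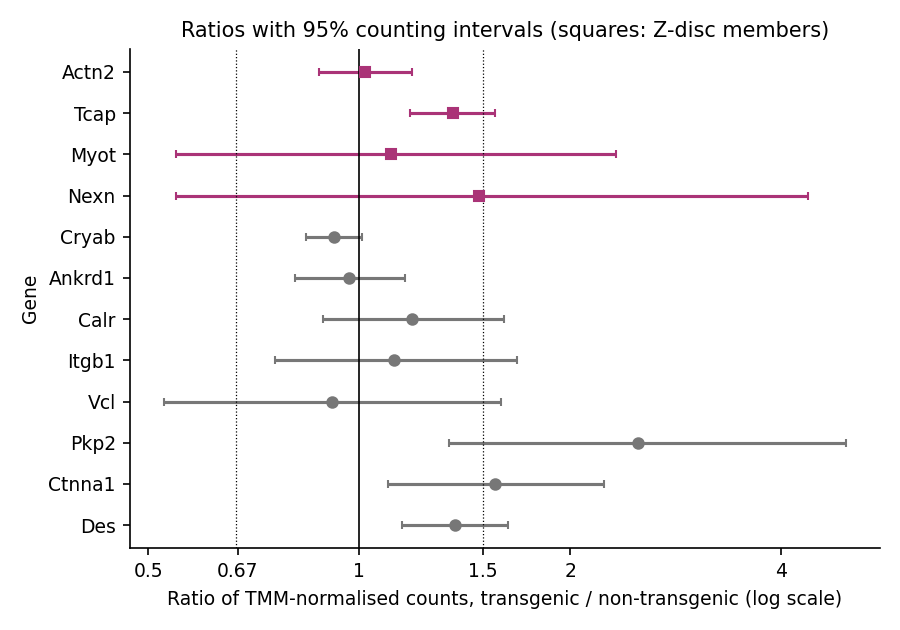
Ratios of TMM-normalised counts, transgenic over non-transgenic (horizontal axis, log scale), with 95% counting intervals, for the 4 Z-disc genes with a ratio (squares) and 8 related genes (circles); dotted lines mark 1.5-fold in each direction. Tcap at 1.36 lies above 1 beyond its interval and below the upper line, Actn2 at 1.02 straddles 1, and Pkp2 at 2.50 lies past 1.5-fold. Neb, called higher at 7.95 (1.13 to 345) on 1 and 10 counts, is not drawn. Des was added after its value was seen.

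All 4 ratios were above 1 (with upper-quartile scaling all but Actn2, at 0.999), with a median log2 ratio of 0.30 against 0.05 over the 4236 genes, of which 2190 were above 1. The 0.05 includes 1784 genes that overlap an opposite-strand exon, a class to which none of the 4 belongs. Their median log2 ratio was -0.14, with 2.47% called higher and 9.25% lower. Called higher and lower were 4.59% and 2.39% of genes with no opposite-strand exon within 5 kb. For genes with one nearby without overlap the shares were 3.76% and 3.68%. Among genes with at least 30 counts the shares were 3.71% and 15.7% for overlapping genes. They were 13.7% and 4.7% for genes with none within 5 kb, and 7.07% and 7.41% for genes with one nearby. Since ratios differed by strand class in these libraries, each gene is set beside its own class. The median log2 ratio was 0.22 over 1089 genes with no opposite-strand exon within 5 kb, above the 0.03 of Actn2 and the 0.15 of Myot, which belong to that class. It was 0.12 over 1276 genes that have one nearby without overlap, below the 0.44 of Tcap and the 0.56 of Nexn. The 4 genes thus lay on both sides of the medians of their classes.

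Ldb3, Csrp3, Myoz2, Nebl, Flnc and Synpo2l have no ratio. Ldb3 encodes ZASP, also called Cypher, which links alpha-actinin to protein kinase C, and Csrp3 encodes muscle LIM protein, a candidate stretch sensor that binds telethonin. Myoz2 encodes calsarcin-1, which tethers calcineurin at the Z-disc, and Nebl encodes nebulette, which ties thin filaments to the Z-disc. Flnc encodes filamin C, an actin crosslinker that links the Z-disc to the cell membrane, and Synpo2l encodes a partner of alpha-actinin. Csrp3 had 0 counts in the control and 1 in the transgenic library, and Synpo2l had 1 and 0. Both lie at or below the limit of 3 counts, so no fold is given.

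Among 21 other Z-disc genes, 11 had a ratio, none was called and the median log2 ratio was -0.04. Cryab, a small heat shock protein that protects desmin and titin, was counted 861 and 997 times (ratio 0.921, interval 0.840 to 1.01). Its exons overlap those of Hspb2 on the opposite strand, which had 0 and 4 counts. Des, chosen after its value was seen, encodes the intermediate filament desmin that joins neighbouring Z-discs. It was counted 204 and 351 times, and its ratio of 1.37 (1.15 to 1.63) was close to that of Tcap. It overlaps Gm15179, which had 0 and 2 counts.

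Genes of stretch and hypertrophy signalling at the Z-disc and I-band gave 12 ratios out of 22 genes, with none called and a median log2 ratio of -0.07. Ankrd1, a stretch-responsive ankyrin repeat protein that binds titin, had 227 and 276 counts and a ratio of 0.967 (0.808 to 1.16). Calr, also in this list, encodes calreticulin, a calcium-binding chaperone of the endoplasmic reticulum and not a Z-disc protein. It had 78 and 117 counts and a ratio of 1.19 (0.888 to 1.61). The calcineurin genes Ppp3ca and Ppp3cb and the calcineurin target Rcan1 had no count in either library, and each has 2 or 3 accessions. Nfatc3, which encodes a transcription factor that calcineurin activates and overlaps a gene on the other strand, was counted 4 and 5 times (ratio 0.994, interval 0.214 to 5.01).

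Costamere and focal adhesion genes, which couple the Z-disc to the cell membrane and matrix, gave 10 ratios out of 19 genes, with none called and a median of 0.27. Itgb1, the integrin beta-1 subunit, was counted 46 and 65 times (ratio 1.12, interval 0.758 to 1.68). Vcl, which encodes vinculin and overlaps Ap3m1 (9 and 5 counts), was counted 27 and 31 times (ratio 0.913, interval 0.527 to 1.59).

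The intercalated disc, where the terminal Z-discs of adjoining cells meet their junctions, was described by 11 genes, of which 6 had a ratio with a median log2 ratio of -0.11. Of the 6, 2 were called higher, none lower and 4 neither, against 3.42% higher and 5.90% lower over all genes, and with 6 genes nothing particular to the list can be read from this. Pkp2, which encodes the desmosomal protein plakophilin-2, went from 14 to 44 counts, which is 2.50-fold after normalisation (interval 1.34 to 4.94). No opposite-strand exon lies within 5 kb of it. Ctnna1, which encodes alpha-catenin of the adherens junction and overlaps Lrrtm2 (1 and 0 counts), went from 51 to 100 counts, or 1.56-fold (1.10 to 2.23). Ctnna1 was no longer called with a 99% counting interval, and Pkp2 was.

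Relatives of the 10 genes that are expressed mainly in other tissues were counted little. Of 10 such genes 2 had a ratio and 1 was called. Neb, which encodes nebulin of skeletal muscle, was counted 1 and 10 times (ratio 7.95, interval 1.13 to 345) and overlaps Gm13522, which was not among the counted genes. Neb too was no longer called with a 99% counting interval. Actn3, the fast skeletal muscle alpha-actinin, had 2 and 0 counts, and Actn1, Actn4, Flna and Csrp1 had none, each with 2 or more accessions. Over all 82 related genes 41 had a ratio, of which 36 have 1 accession. Of the 41, 3 were higher (7.32%, against 3.42% of all genes) and none lower, and the median log2 ratio was -0.05. These shares are not at like depth. At least 30 counts were held by 23 of the 41, but by only 1349 of the 4236 genes. Over those 1349 genes 6.23% were higher and 12.1% lower.

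Markers of the cardiomyocyte, the cell that makes these Z-disc proteins, were counted in both libraries. The summed level of 10 marker genes was 26914 CPM in the control and 40477 CPM in the transgenic library, by library totals without TMM. Myl2 alone held 2405 of the 4590 and 3916 of the 7724 counts. Of the 10 markers, 6 had a TMM-normalised ratio and 1 was called higher, Tnnc1 at 1.59 (1.39 to 1.81). Below 1.5-fold but above 1 beyond their intervals were Tnni3 at 1.40, Actc1 at 1.34 and Myl2 at 1.29, while Ryr2 at 1.14 (0.906 to 1.44) and Ttn at 0.972 (0.366 to 2.65) were not distinguishable from 1. The markers Tnnt2 and Myl3 were at 0 in both libraries and Myh6 and Mb at 0 or 1, and each of them has 2 or more accessions. Of 7 skeletal muscle markers, Myh1, Myh2, Myh4 and Tnnt3 had no count, and the summed level was 2017 and 2080 CPM, nearly all of it from Ckm, which heart also expresses. Fibroblast markers summed to 293 and 199 CPM over 7 genes, endothelial markers to 1308 and 1352 over 6, macrophage markers to 88.0 and 110 over 6, and smooth muscle and pericyte markers to 598 and 1038 over 6. These lists gave 4 fibroblast, 4 endothelial, 2 macrophage and 3 smooth muscle and pericyte ratios. Among them Rgs5, a pericyte marker, was called higher at 1.92 (1.43 to 2.61), and the fibrillar collagen gene Col3a1 was called lower at 0.484 (0.230 to 0.981). Col3a1 had only 23 and 14 counts, and its interval ended just below 1. Over all genes 3.42% were called higher and 5.90% lower. Rgs5 held 65 of the 102 and 157 of the 198 counts of its list. Tagln at 0.738 (0.416 to 1.31) and Acta2 at 1.59 (0.552 to 5.16) in that list were not distinguishable from 1. The other fibroblast ratios, of Col1a1, Col1a2 and Lum, had intervals that held 1. Whether the make-up of the hearts had a part in the ratio of Tcap was not tested.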

How the data were processed

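The authors deposited raw read counts per RefSeq transcript for each library. Per the submitters' processing notes the tools were STAR and HTSeq and the build mm10, with versions, annotation and strand setting not given in the sources used here. The libraries were made with a stranded kit after poly-A selection, per the labels' protocols.

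Of 41449 accessions, 41252 were named from RefSeq (GRCm38.p6) and 99 from GENCODE M21 on GRCm38. The 98 unnamed held 1.81% and 1.66% of the counts. Counts were summed over 25004 genes. Exon overlaps (bedtools 2.31.1) and private bases come from GENCODE, whose transcript ends can differ from RefSeq's. TMM factors were 0.943 and 1.06 (edgeR 4.0.16, R 4.3.3). With 1 library per group no test was possible. Ratios, exact intervals and calls used Python 3.11.15 with scipy 1.17.1 and were tested on simulated counts. The 10 genes were fixed by function and not picked by their counts, though earlier results of these data were known by then. The lists and the rule for genes named were also set with those results known. The rule takes all 10 genes, their opposite-strand neighbours, and of each list up to 4 called genes or the 2 most counted. A gene that the rule takes is not reported here. Other genes named were chosen after their values were seen. Alternatives were other scalings, folds, intervals and count filters.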

Additional observations from a re-analysis of the deposited data

How the results depend on the processing

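The ratios of Actn2, Tcap, Myot and Nexn stayed within their main counting intervals under DESeq2 size factors, upper-quartile scaling and library totals. Taking the most counted accession could not change them, since all counts of each of these genes were on 1 accession. The count of Z-disc genes called was 0 except with library totals alone, where it was 1 (Tcap). The median log2 ratio of the Z-disc genes ranged from 0.15 with at least 30 counts required to 0.47 with library totals. Leaving out genes that overlap opposite-strand exons left it at 0.30, since none does. Over all genes the median log2 ratio moved by 0.11 with DESeq2 size factors and 0.17 with library totals. Calls over all genes were 145 higher and 250 lower. Higher calls were 218 with DESeq2 size factors, 244 with library totals, 57 with a 99% interval and 84 with at least 30 counts. Lower calls were 148 with library totals, 157 at 2-fold, 121 with a 99% interval and 163 with at least 30 counts. Higher calls made up 36.7% of calls, and 54.4% and 62.2% with DESeq2 size factors and library totals. Of the related genes, 3 were higher and 0 lower. The higher count was 1 (Pkp2) with a 99% interval, 2 at 2-fold (without Ctnna1), 2 with at least 30 counts (without Neb) and 4 with library totals (Des added), and the lower count was 1 (Xirp1) with upper-quartile scaling. No paired analysis was possible because each group has 1 library, and for the same reason no library could be left out. The depth limits Myot and Nexn most.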
